A study of Mus musculus with 4 samples.

Results

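Rgs13, Bcl6, S1pr2, Gcsam and Mef2b are 5 genes used to recognise germinal center B cells, and they were followed here through single-cell RNA libraries of 4 mouse spleens. They were taken by symbol from the 32285 genes of the deposited count tables, and each symbol matched 1 gene. The knock-in mice, called D3TA, were 2 female C57BL/6J animals aged 12 and 16 months that carried a heterozygous, global and constitutive knock-in of Ccnd3 made with CRISPR/Cas9, in which threonine 283 of cyclin D3 is an alanine. At that age these mice show signs of a myeloproliferative neoplasm, an overproduction of myeloid blood cells. They were compared with 2 wild-type (WT) females matched for age and sex, which carry no knock-in allele. Each mouse gave 1 library, it is not labelled which of them was which age, and nothing was sorted, so all spleen cells that survived mechanical dissociation and red cell lysis could be captured. Because each genotype is 2 animals, every p-value between genotypes below measures the spread among these mice only; with 1 mouse left out, its genotype is 1 animal assumed to vary like the other pair. Comparisons between cells of the same libraries measure the spread over the 4 libraries.

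Germinal centers are the transient follicle structures in which B cells answering an antigen divide, mutate their antibody genes and are selected. Their cells alternate between a dark zone of division and mutation and a light zone of selection, and in the mouse the dividing dark-zone cells depend on cyclin D3 rather than on the other D-type cyclins. BCL6, a transcriptional repressor, is needed to start and keep this state, and MEF2B is a transcription factor that activates Bcl6 in germinal center cells. S1PR2 is a receptor for sphingosine 1-phosphate that keeps the cells inside the center, RGS13 dampens signals from chemokine receptors, and GCSAM is an adaptor of B cell motility and receptor signalling.

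In GRCm38 coordinates of the GENCODE annotation, Rgs13 lies on the minus strand at chr1:144138654-144177372, Bcl6 on the minus strand at chr16:23965052-23988852 and S1pr2 on the minus strand at chr9:20962361-20976781. Gcsam lies on the plus strand at chr16:45610380-45622867, and Mef2b on the plus strand at chr8:70139711-70167488. Mef2b overlaps Borcs8 on the same strand and Borcs8 is counted too, so the split of reads between these neighbours is uncertain. Bcl6 overlaps Gm37419 on the other strand.

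Start regions of 300 bases (250 before the annotated start, 50 after it) from RefSeq's GRCm38.p6 tables are shown for Rgs13, the member with the largest difference between genotypes in the whole spleen, for Mef2b, which holds the octamer bound by B cell POU factors, and for the second start of Bcl6, which holds a motif of the BCL6 protein itself. Capitals mark, on either strand, the octamer ATGCAAAT, E boxes CAGNTG (bound by E proteins), the BCL6-type motif TTCCTNGAA and the ETS motif ACCGGAA.
Rgs13, chr1:144177323-144177622, minus strand: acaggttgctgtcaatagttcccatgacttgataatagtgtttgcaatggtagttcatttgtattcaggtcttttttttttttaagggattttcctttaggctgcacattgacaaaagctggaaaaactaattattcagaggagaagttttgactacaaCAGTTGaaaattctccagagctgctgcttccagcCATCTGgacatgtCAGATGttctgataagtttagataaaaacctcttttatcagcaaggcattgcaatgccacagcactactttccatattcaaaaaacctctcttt
Mef2b, chr8:70152511-70152810, plus strand: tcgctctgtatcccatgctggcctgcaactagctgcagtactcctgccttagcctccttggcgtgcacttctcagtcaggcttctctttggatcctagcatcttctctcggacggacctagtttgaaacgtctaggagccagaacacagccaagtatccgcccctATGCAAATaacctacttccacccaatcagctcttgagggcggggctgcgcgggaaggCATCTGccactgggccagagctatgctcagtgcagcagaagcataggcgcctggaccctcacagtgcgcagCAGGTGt
Bcl6 second start, chr16:23981234-23981533, minus strand: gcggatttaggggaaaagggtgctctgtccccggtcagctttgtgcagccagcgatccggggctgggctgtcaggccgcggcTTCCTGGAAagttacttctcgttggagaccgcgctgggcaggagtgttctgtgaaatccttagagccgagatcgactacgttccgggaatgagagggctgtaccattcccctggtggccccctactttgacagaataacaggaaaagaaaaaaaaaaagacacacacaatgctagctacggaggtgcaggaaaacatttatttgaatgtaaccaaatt
The Rgs13 region held E boxes 91, 57 and 44 bases before the start. In the Mef2b region the octamer stood 85 bases before the start, with E boxes 28 bases before and 43 bases after it. The BCL6-type motif of the Bcl6 region began 168 bases before that start. Among all 32851 start regions of this length, the octamer was present in 1.74%, the BCL6-type motif in 1.59%, the ETS motif in 3.72% and an E box in 51.4%. S1pr2 held 3 E boxes, and the regions of Gcsam and of the first Bcl6 start held none of these letters. These matches describe the sequence alone.

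The 4 libraries held 143811696 and 114430052 UMIs (unique molecular identifiers, each 1 counted RNA molecule) in D3TA mice 1 and 2, and 83507825 and 81416981 in WT mice 1 and 2. After filtering there were 11792 and 10573 D3TA cells and 22286 and 7679 WT cells, with a median of 7751.5 and 7559 UMIs per D3TA cell but 1393 and 7919 per WT cell, so WT mouse 1 was the shallow library. Between 32 and 127 cell barcodes were shared by any pair of libraries, at most 0.839% of the smaller one. B cells were taken as 6 clusters named from B cell markers plus the cells of 1 unnamed cluster that had at least 2 UMIs over a gate of B cell genes, Cd79a, Cd79b and Ms4a1 among them, and fewer of Cd3e and Cd3d. That unnamed cluster, called the mixed cluster below, was led by Mybl1, Pclaf, Basp1, Mef2b, Nuggc and Top2a and scored between plasma and B cells; its inclusion was decided after the data were seen. There were 1969 and 3898 B cells in the D3TA libraries (16.7% and 36.9% of cells) and 11249 and 3860 in the WT libraries (50.5% and 50.3%). D3TA mouse 1 gave 97.4% of one B cell cluster, which held 77.0% of its B cells, and WT mouse 1 gave 96.4% of another, which held 56.9% of its B cells, so the B cells compared come in part from different clusters. Cd79a was detected in 98.9% and 97.02% of D3TA B cells and in 79.3% and 95.03% of WT B cells. All 12 neutrophil markers were detected among the B cells of every library, at a summed 2666 and 2184 CPM (the UMIs of a set of cells in a library, scaled to a fixed total) in D3TA mice and 196 and 75.7 CPM in WT mice; the part of this neutrophil RNA in the results on B cells was not tested.

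Averaged over the 4 libraries, 4 of the 5 genes had their highest level in the mixed cluster, and Bcl6 did not. Rgs13, the chemokine-signal regulator, reached a mean of 129 CPM over libraries in the B cells of the mixed cluster (range 6.27 to 240 CPM). Its next class, plasma cell-like cells, had 4.89 CPM, B cell-like cells had 3.33 CPM, and no Rgs13 UMI was found in neutrophil precursor-like or basophil and mast cell-like cells. Plasma cell-like and B cell-like cells did not differ beyond their spread in Rgs13, since the plasma cell-like level ran from 0 to 16.1 CPM over libraries.

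Mef2b, the activator of Bcl6, also peaked in the mixed cluster at 133 CPM (39.8 to 219 CPM), with 29.2 CPM in plasma cell-like cells next and 15.9 CPM in B cell-like cells. Its level in the other named classes lay between 6.72 and 17.3 CPM, so Mef2b RNA was found at a low level throughout the spleen. S1pr2, the confinement receptor, averaged 48.8 CPM in the mixed cluster (6.86 to 79.5 CPM), 14.7 CPM in NK cell-like cells and 11.7 CPM in monocyte-like cells. B cell-like cells outside the mixed cluster had the lowest S1pr2 level of all classes, 1.09 CPM.

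Gcsam, the motility adaptor, had 2 places of high level, the mixed cluster with 59.0 CPM (11.2 to 117 CPM) and dendritic cell-like cells with 47.7 CPM (24.05 to 77.8 CPM), which overlapped. The order differed by mouse, since in both D3TA mice Gcsam was higher in dendritic cell-like cells (49.2 and 77.8 CPM) than in the mixed cluster (11.2 and 20.4 CPM), and in both WT mice it was lower there (24.05 and 39.9 CPM against 117 and 87.7 CPM). Every other class averaged at most 4.75 CPM of Gcsam. Bcl6 followed another order, with 190 CPM in neutrophil-like cells, 154 CPM in monocyte-like cells and 114 CPM in dendritic cell-like cells. The neutrophil-like level ran from 95.4 to 355 CPM over libraries, with both D3TA mice near the low end and both WT mice above them. The B cells of the mixed cluster came next after NK cell-like cells for Bcl6, with 96.6 CPM, B cell-like cells had 61.2 CPM, and erythroid-like cells had 9.51 CPM. Ranges of Bcl6 overlapped between neighbours in this order, from neutrophil-like cells down to B cell-like cells.

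**Figure D1:**
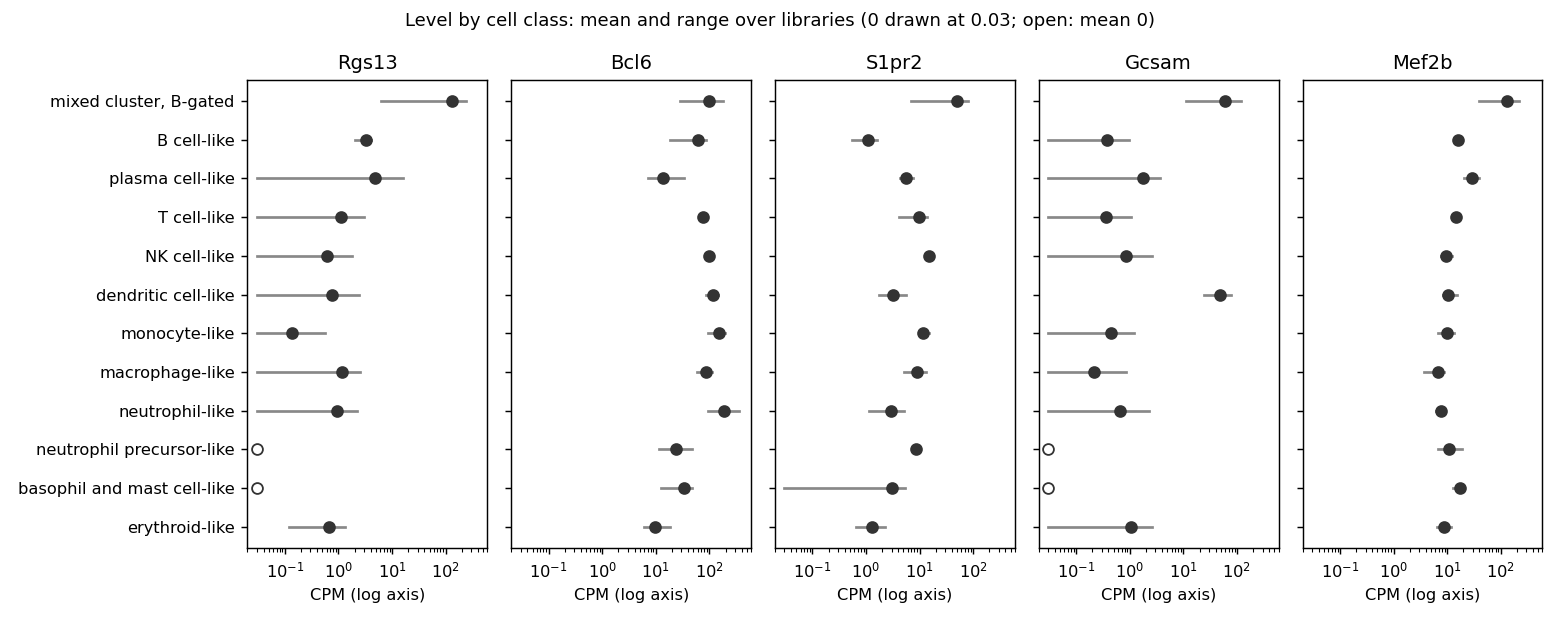
Level of each gene by cell class, in CPM on a log axis; points are means over the libraries with enough cells of the class, lines the range over libraries, and a level of 0 is drawn at 0.03. Rgs13, S1pr2, Gcsam and Mef2b have their highest mean in the B cells of the mixed cluster, Gcsam a second high level in dendritic cell-like cells, and Bcl6 its highest mean of 190 CPM in neutrophil-like cells. That Bcl6 level ranges from 95.4 to 355 CPM, with both D3TA mice near the low end.

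Likeness over clusters set Rgs13 and Mef2b together and apart from Bcl6. Over 33 clusters of at least 50 cells, the genes whose log2(CPM + 1) was most like that of Rgs13 were Bend5 (Pearson r = 0.80), 4930426D05Rik (0.80) and Rflna (0.80), and among the members it was most like Mef2b (0.79). For Mef2b the nearest were Neil1, a DNA glycosylase, at 0.80, Rgs13 at 0.79 and Eaf2 at 0.75. Gcsam was nearest to Plce1 (0.70), Dbn1 (0.68) and Sept3 (0.66), and S1pr2 to Ttc39c (0.68), Tox (0.68) and Ttn (0.66). The genes nearest to Bcl6 were Lcp1, an actin-bundling protein of leukocytes, at 0.85, Fmnl1 at 0.81 and Stat3 at 0.79, while its r was 0.0061 with Rgs13, -0.16 with Mef2b, 0.22 with Gcsam and 0.31 with S1pr2. S1pr2 was no nearer to the other members than to Bcl6, at 0.25 with Gcsam, 0.15 with Mef2b and 0.12 with Rgs13. These clusters share their 4 libraries, and 14766 genes were compared, so the values are descriptions.

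Between genotypes, the first question was how much RNA of these genes the spleen held. Rgs13 had 1.06 and 2.24 CPM in the D3TA spleens, against 11.3 and 13.6 CPM in the WT spleens, after scaling by trimmed means (TMM). Both D3TA values lay under both WT values, and Rgs13 fell by 2.92 on the log2 scale (SE 0.42; mean 1.65 ± 0.83 CPM in D3TA and 12.5 ± 1.63 CPM in WT, SD, n = 2 each; edgeR quasi-likelihood test, adjusted p = 0.0238). It was the only member called, where 6.08% of 18344 genes passed the test, 5.7% being higher and 0.382% lower in D3TA; all 5 members passed the filter on low counts. DESeq2 called 2 members among 13.3% of genes, and edgeR called 2 among 7.5% without D3TA mouse 1, 3 among 29.3% without D3TA mouse 2, 1 among 2.25% without WT mouse 1 and 0 among 1.22% without WT mouse 2. The call was lost without WT mouse 2, where edgeR gave an adjusted p of 0.0725, and over all alternatives the adjusted p of Rgs13 ran from 1.08e-10 to 0.0725. Fewer germinal center cells and less Rgs13 RNA per cell cannot be told apart in these sums.

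Mef2b had 13.3 and 14.0 CPM in the D3TA spleens and 22.7 and 22.6 CPM in the WT spleens. The pairs of values did not overlap and lay close together, but the log2 difference of -0.73 (SE 0.15) missed the threshold in edgeR (adjusted p = 0.0628) and passed it in DESeq2 (adjusted p = 0.0049). Gcsam stood at 1.69 and 3.96 CPM in D3TA, against 5.93 and 5.72 CPM in WT, a log2 difference of -1.04 (SE 0.45, edgeR adjusted p = 0.253). The D3TA values of Gcsam were both lower but differed by more from each other than the WT values did.

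Bcl6 and S1pr2 overlapped between genotypes in the whole spleen. Bcl6 had 57.6 and 67.2 CPM in D3TA and 81.0 and 61.5 CPM in WT (log2 difference -0.19, SE 0.20, edgeR adjusted p = 0.610). For S1pr2 the values were 5.26 and 4.87 CPM in D3TA and 5.09 and 6.46 CPM in WT (log2 difference -0.19, SE 0.25, edgeR adjusted p = 0.685). Rgs13, Gcsam and Mef2b were thus lower in both D3TA spleens than in both WT spleens, in a comparison where 28.5% of all genes were.

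Where in the spleen these molecules sat differed by gene. B cells held 86.2% and 84.7% of all Rgs13 UMIs in the D3TA libraries and 84.7% and 84.1% in the WT libraries, a nearly constant share of 123 and 236 UMIs in D3TA and 910 and 1026 in WT. Bcl6 was spread more widely, with 8.97% and 35.8% of its UMIs in B cells in D3TA and 61.2% and 54.8% in WT. For S1pr2 the B cell share was 12.0% and 23.5% in D3TA, against 63.6% and 53.3% in WT. Both genes also had RNA in myeloid and NK cell-like cells, as their class order shows.

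For Gcsam 29.1% and 13.4% of UMIs were in B cells in D3TA, against 76.3% and 65.7% in WT. Dendritic cell-like cells held most of the rest, with 123 and 332 Gcsam UMIs in D3TA and 71 and 116 in WT, which is 49.2 and 77.8 CPM in D3TA and 24.05 and 39.9 CPM in WT. The whole-spleen level of Gcsam therefore joins a B cell part that was lower in D3TA with a dendritic part that was not. Mef2b had 41.7% and 43.9% of its UMIs in B cells in D3TA and 66.4% and 68.1% in WT.

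**Figure D2:**
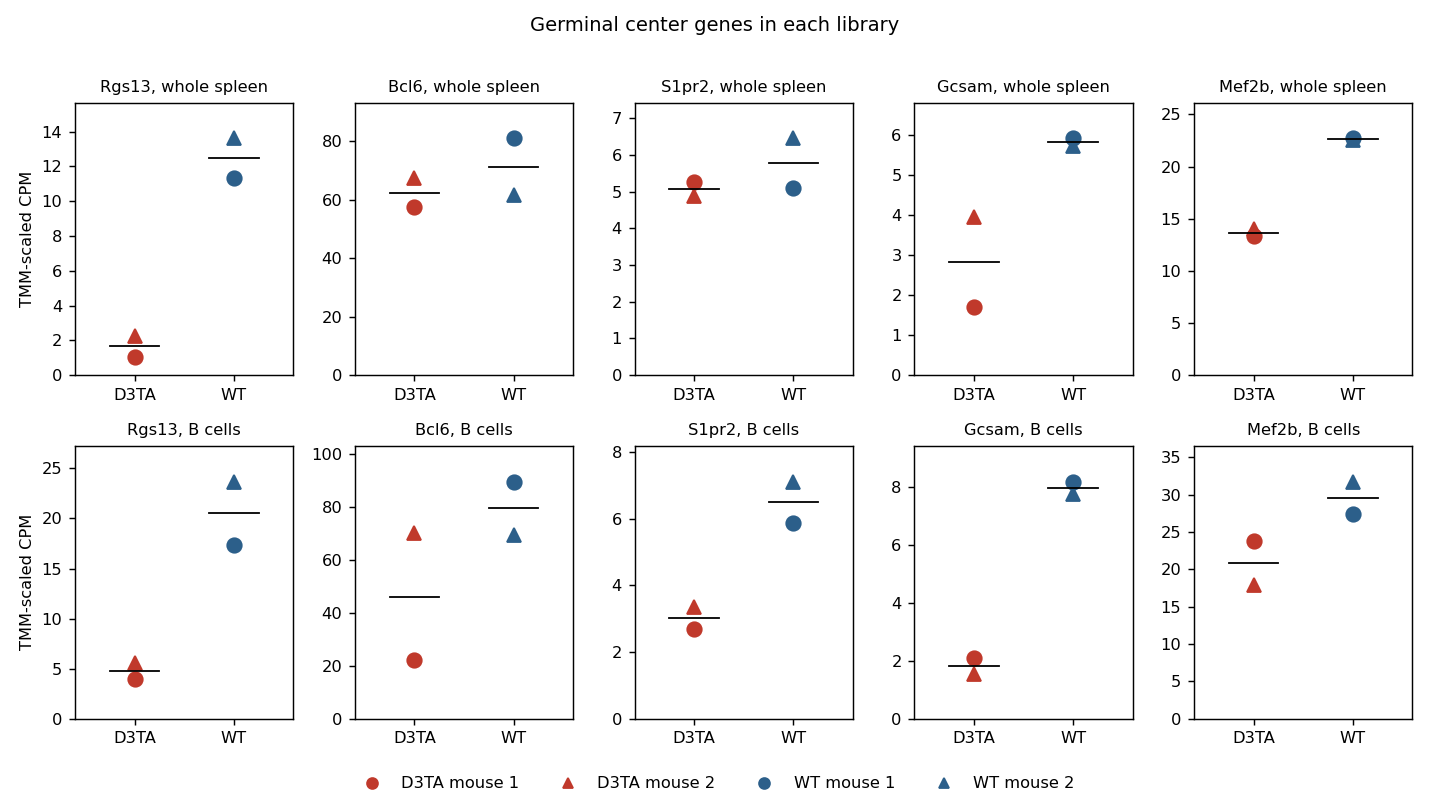
TMM-scaled CPM of the 5 genes in each library, in the whole spleen (upper row) and in B cells (lower row); points are mice and bars are genotype means. Rgs13 lies at 1.06 and 2.24 CPM in the D3TA spleens and at 11.3 and 13.6 CPM in the WT spleens, and in B cells Rgs13, S1pr2, Gcsam and Mef2b do not overlap between genotypes.

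Within B cells, the sums of 4 members were lower in both D3TA mice than in both WT mice, but none passed the test. Rgs13 had 3.92 and 5.54 CPM in D3TA B cells and 17.4 and 23.7 CPM in WT B cells (log2 difference -2.12, SE 0.30, edgeR adjusted p = 0.588, unadjusted 0.0018). Gcsam had 2.11 and 1.55 CPM in D3TA and 8.19 and 7.77 CPM in WT, a log2 difference of -2.13 (SE 0.30, edgeR adjusted p = 0.584, unadjusted 0.0016). The Gcsam difference was -1.13 with the stricter cell filter, -0.86 without the clusters of 1 library and -0.70 with B cells gated in all clusters with no limit on neutrophil genes. Within each genotype the values of both genes lay close together, and the gap between genotypes was wider than the distance between the mice of either genotype.

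S1pr2 stood at 2.70 and 3.35 CPM in D3TA B cells and 5.86 and 7.11 CPM in WT B cells (log2 difference -1.10, SE 0.28, edgeR adjusted p = 0.723). For Mef2b the levels were 23.7 and 17.9 CPM in D3TA and 27.4 and 31.8 CPM in WT, a log2 difference of -0.50 (SE 0.22, edgeR adjusted p = 0.723). Bcl6 had 22.1 and 70.3 CPM in D3TA and 89.7 and 69.6 CPM in WT, so the genotypes overlapped and the D3TA mice differed from each other more than the WT mice did. Its log2 difference was -0.79 (SE 0.59, edgeR adjusted p = 0.813).

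edgeR called 0 of 14740 genes in B cells (0% called), 967 genes (6.56%) had an unadjusted p under 0.05, and DESeq2 called 249 (1.69%). Among those 249 were 2 members, Rgs13 (DESeq2 adjusted p = 5.46e-05) and Gcsam (7.40e-05); over all alternatives the adjusted p ran to 1.00 for Rgs13 and for Gcsam. In B cells 19.4% of all genes lay lower in both D3TA mice without overlap. Without D3TA mouse 1, edgeR called 4 members among 12.1% of all genes, and without D3TA mouse 2 all 5 among 46.2%; in these fits the spread is that of the WT pair alone.

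In the B cells of the mixed cluster Rgs13 had 6.27 and 50.03 CPM in the D3TA mice and 218 and 240 CPM in the WT mice, Gcsam 11.2 and 20.4 CPM in D3TA and 117 and 87.7 CPM in WT, and S1pr2 6.86 and 33.4 CPM in D3TA and 75.6 and 79.5 CPM in WT. Mef2b had 39.8 and 64.8 CPM in D3TA and 210 and 219 CPM in WT, and Bcl6 28.4 and 51.1 CPM in D3TA and 176 and 131 CPM in WT, so no member overlapped between genotypes there. The share of all genes that separated in these cells was not computed, so this separation cannot be set against that of other genes. The 19.4% of genes that lay lower in D3TA without overlap was found in all B cells, a different set of cells. With the mixed cluster left out, the log2 difference of Rgs13 in B cells was -0.62, those of S1pr2 and Mef2b turned to 0.56 and 0.18, and that of Bcl6 stayed close, at -0.68. Gcsam had 0 and 1 UMIs left in the D3TA B cells and 40 and 17 in the WT B cells, where the fitted log2 difference of -5.11 rests on that 1 UMI. None was called by edgeR.

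A cell was next counted as positive with 1 UMI or more. Rgs13 was detected in 2.39% and 1.26% of D3TA B cells (47 and 49 cells) and in 1.6% and 2.23% of WT B cells (180 and 86 cells). T cell-like cells, which should lack it, were positive at 0% (0 of 683 cells, which allows up to 0.439%) and 0.0712% in D3TA and at 0.657% and 0.966% in WT. The share in B cells was above that in T cell-like cells in every library, at median depths of 13608 and 7427.5 UMIs per B cell and 6406 and 7132 per T cell-like cell in D3TA, against 1408 and 7697 per B cell and 1292 and 7858 per T cell-like cell in WT.

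Gcsam was detected in 0.559% and 0.410% of B cells in D3TA (11 and 16 cells) and in 0.827% and 1.40% in WT (93 and 54 cells). This was the only member whose positive shares did not overlap between genotypes at full depth (exact permutation test, p = 0.33, the smallest 2 mice against 2 allow). Its shares did overlap with the stricter cell filter, without the clusters of 1 library and with B cells gated in all clusters with no limit on neutrophil genes (exact p = 1 each). S1pr2 was positive in 2.64% and 1.26% of D3TA B cells and in 0.960% and 1.89% of WT B cells. T cell-like cells had higher S1pr2 shares in 3 libraries and nearly the same in WT mouse 1, at 7.47% and 5.34% in D3TA and 0.9496% and 7.92% in WT, so a single S1pr2 UMI did not set B cells apart.

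Mef2b was found in 22.04% and 11.8% of D3TA B cells and 5.95% and 13.2% of WT B cells, against 6.88% and 10.2% of T cell-like cells in D3TA and 4.11% and 10.9% in WT. Bcl6 was found in 18.9% and 33.9% of B cells in D3TA and in 19.5% and 33.7% in WT, and in 28.0% and 30.4% of T cell-like cells in D3TA and 13.2% and 32.4% in WT. A single UMI of either gene was therefore common outside B cells too. The Mef2b share was highest in the deepest B cells, those of D3TA mouse 1, whereas the Bcl6 share was lowest there.

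Since WT mouse 1 was shallow, each B cell was also thinned to 2000 UMIs, which kept 1950 and 3825 D3TA cells and 4614 and 3696 WT cells. At this equal depth Rgs13 was positive in 0.872% and 0.523% of D3TA B cells and 1.495% and 1.33% of WT B cells. Gcsam was positive in 0.308% and 0.131% in D3TA and in 0.715% and 0.487% in WT. For both genes the D3TA mice lay under the WT mice, each at p = 0.33 by the exact permutation test. How many of all genes have positive shares that separate in this way was not computed, at this or any other depth.

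S1pr2 still overlapped at that depth, with 0.513% and 0.444% in D3TA and 0.694% and 0.325% in WT, and Mef2b did too, with 3.74% and 2.69% in D3TA and 3.62% and 3.87% in WT. At 1000 UMIs neither overlapped, with S1pr2 at 0.255% and 0.207% in D3TA and 0.326% and 0.319% in WT, and Mef2b at 1.53% and 1.55% in D3TA and 2.08% and 1.75% in WT. Thinned to 1000 UMIs, Rgs13 was positive in 0.255% and 0.155% of D3TA B cells and 0.909% and 0.797% of WT B cells, again without overlap. The T cell-like share at that depth was 0% in both D3TA mice, which allows up to 0.444% and 0.215%, and 0.306% and 0.0979% in WT.

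Few B cells held several members at the same time. At least 2 of the 5 genes were found in 108 and 198 D3TA B cells (5.49% and 5.08%) and in 329 and 246 WT B cells (2.92% and 6.37%), with overlap between genotypes. In T cell-like cells the same rule found 6.44% and 6.33% in D3TA and 1.97% and 8.89% in WT, above the B cell share in 3 of 4 libraries, and in dendritic cell-like cells of D3TA 20.2% and 27.8%, so it does not by itself mark B cells. At least 3 were found in 15 and 22 D3TA cells (0.762% and 0.564%) and 73 and 59 WT cells (0.649% and 1.53%), against 0.439% and 0.712% of T cell-like cells in D3TA and 0.146% and 0.580% in WT. All 5 genes were found together in 6 and 9 D3TA cells and in 32 and 29 WT cells.

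Among B cells with 3 or more members, those with all 5 were the most frequent in every library, ahead of those with exactly 3 (4 and 5 in D3TA, 17 and 14 in WT) and exactly 4 (5 and 8 in D3TA, 24 and 16 in WT). These cells were deep, with a median of 32078 and 15976.5 UMIs in D3TA and 13891 and 23159 UMIs in WT.

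As a share of all spleen cells, B cells with 3 or more members made up 0.127% (exact 95% interval 0.0712% to 0.210%) and 0.208% (0.130% to 0.315%) in D3TA mice 1 and 2. In WT mice 1 and 2 they made up 0.328% (0.257% to 0.412%) and 0.768% (0.585% to 0.990%). Cells of other classes with 3 or more members were left out of these counts. The genotypes did not overlap, and the exact permutation test gave p = 0.33. They overlapped when cells were thinned to 1000 UMIs and with B cells gated in all clusters with no limit on neutrophil genes (exact p = 0.667 each). As a share of B cells the same counts overlapped, so the separation depends on the denominator. B cells were 16.7% and 36.9% of D3TA cells and 50.5% and 50.3% of WT cells. With B cells thinned to 2000 UMIs, 2 or more members were found in 0.615% and 0.627% of D3TA B cells and 1.93% and 1.57% of WT B cells, a mean difference of -1.13 percentage points (exact p = 0.33). Cells with 3 or more made up 0.154% and 0.0784% in D3TA and 0.629% and 0.352% in WT. These intervals cover counting error only.

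**Figure D3:**
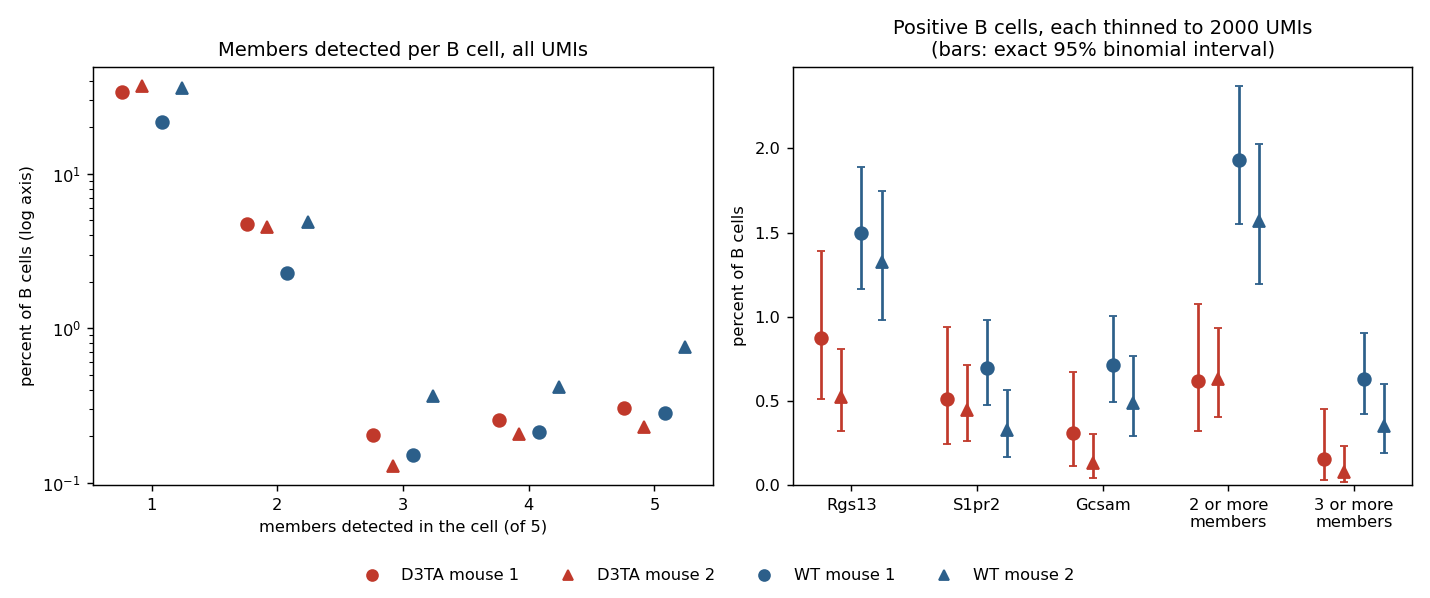
Left, percent of B cells (log axis) with exactly 1 to 5 of the genes detected at full depth. Right, percent of B cells positive after thinning each cell to 2000 UMIs, with exact 95% binomial intervals; at 2 or more members the D3TA mice sit at 0.615% and 0.627% and the WT mice at 1.93% and 1.57%.

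The mixed cluster held 86.7% and 86.4% of the D3TA B cells with 3 or more members and 89.0% and 91.5% of the WT B cells, although the 5 genes had been left out of the clustering. Such cells were 7.39% and 20.9% of the mixed cluster's B cells in D3TA (of 176 and 91) and 21.2% and 55.7% in WT (of 307 and 97). D3TA mouse 2 and WT mouse 1 were close in this share, so the genotypes barely separated on it. At 2 or more members the shares were 16.5% and 30.8% in D3TA and 28.0% and 63.9% in WT, where D3TA mouse 2 lay above WT mouse 1. Counted over all classes, the mixed cluster's B cells held 31.7% and 24.4% of D3TA cells with 3 or more members. In WT they held 65% and 62.1%. Dendritic cell-like cells held 9.76% and 35.9% of such cells in D3TA and 5% and 8.05% in WT.

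Pairs differed widely in how far their joint detection exceeded the product of the single shares. S1pr2 and Gcsam were both found in 106 B cells over the 4 libraries, where the product of their shares within each library gives 2.41 cells, a ratio of 44.1 (34.4 to 69.6 over libraries). Rgs13 with Gcsam gave 106 cells against 3.15 (ratio 33.6, 27.4 to 54.7), and Rgs13 with S1pr2 gave 114 against 5.21 (ratio 21.9, 7.25 to 27.8). In the lowest of these, D3TA mouse 1, 9 cells held Rgs13 and S1pr2.

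Gcsam with Mef2b stood at 7.01, S1pr2 with Mef2b at 4.66 and Rgs13 with Mef2b at 4.14. Summed over libraries, Bcl6 had the lowest ratio with every partner, at 2.73 with Gcsam, 2.19 with S1pr2, 2.14 with Rgs13 and 1.26 with Mef2b, the last from 682 cells against 541 (0.951 to 1.81 over libraries). In D3TA mouse 1 Mef2b was lower than Bcl6 in its ratios with Rgs13 (1.54 against 1.80) and with Gcsam (4.54 against 4.81). Cells of a library share its depth and deep cells hold more of every gene. A ratio also cannot exceed 1 over the share of the commoner gene, so pairs with the often detected Bcl6 or Mef2b have a lower ceiling. Of the Gcsam-positive B cells, 10 of 11 and 15 of 16 in D3TA also held Bcl6, and 57 of 93 and 38 of 54 in WT. The order of the pairs is therefore set in part by how often each gene was detected, and the ratios are descriptions.

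**Figure D4:**
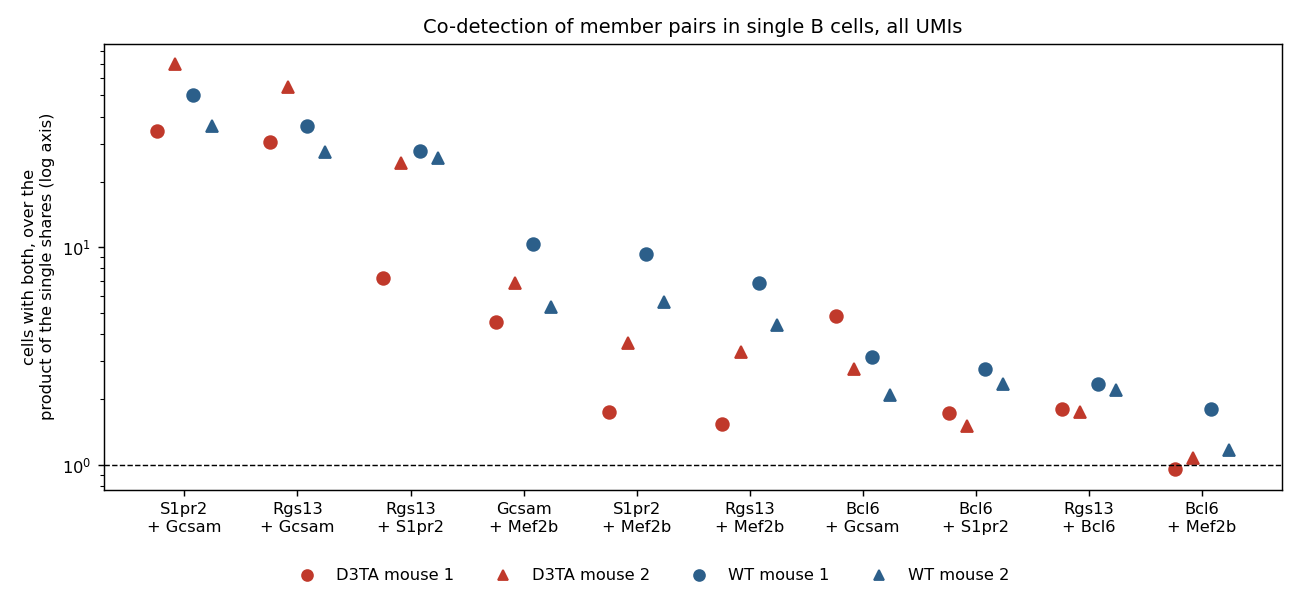
Number of B cells with both genes of a pair over the number given by the product of the single shares, per library, on a log axis; the dashed line marks a ratio of 1. Pairs among S1pr2, Gcsam and Rgs13 have the highest ratios summed over libraries, from 7.25 to 69.6 in single libraries. Bcl6 with Mef2b has the lowest, from 0.951 to 1.81.

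What else the co-positive cells, those B cells with 2 or more members, held was read from all other genes. They were deeper than the remaining B cells, with a median of 14516 and 9776 UMIs against 13581 and 7352.5 in D3TA, and 8041 and 11376.5 against 1359 and 7513 in WT. The UMIs of B cells with 2 or more members were compared with those of the remaining B cells of the same library, and edgeR called 2931 of 13011 genes (22.5%), 1647 higher (12.7%) and 1284 lower (9.87%). The count was 1010 without WT mouse 1, 1372 without WT mouse 2 and 1667 without D3TA mouse 2.

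The named genes with the largest differences rose in the summed UMIs of co-positive cells of all 4 libraries. Tox2 (5.69 on the log2 scale), an HMG-box transcription factor, and its relative Tox (4.04) were among them, with the linker histone H1fx (5.66), Basp1 (5.47), Nuggc (5.42), a nuclear GTPase of germinal center B cells, and Mybl1 (5.03), a MYB-family transcription factor. Cacna2d3 (5.41), Ranbp17 (4.85), Irak1bp1 (4.62), Galnt17 (4.39) and Rassf6 (3.42) rose too. Galnt17 was low in the D3TA mice, with 1.42 and 1.61 CPM in their co-positive cells. Most co-positive cells lay outside the mixed cluster, which held 26.9% and 14.1% of them in D3TA and 26.1% and 25.2% in WT. Basp1, a leading gene of that cluster, was detected in 11.1% and 12.6% of co-positive cells in D3TA and 27.4% and 28.5% in WT. The summed levels therefore do not describe each co-positive cell.

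The 12 named genes that fell did so by 0.75 to 1.00 on the log2 scale, in all 4 libraries. Among them were Ccr7 (-0.82), the receptor that draws B cells toward the T cell zone, Cd1d1 (-0.79), which presents lipids, the glucocorticoid-induced Tsc22d3 (-0.76) and the histone demethylase Kdm5b (-1.0). Tent5a (-1.0), Rnf144a (-0.85), Slfn5 (-0.84), Crim1 (-0.81), Gpr132 (-0.78), Dstyk (-0.77), Arhgap18 (-0.75) and Tdrd7 (-0.75) were the others.

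Read by lists chosen with earlier results known, 16 of 22 other germinal center genes rose and 3 fell, with a median log2 difference of 0.97 against -0.05 over all genes. Of 11 dark-zone genes 8 rose and 1 fell (median 1.39), among them Polh, a translesion polymerase used in hypermutation (1.39), and Plk1, a mitotic kinase (3.05). Of 13 light-zone genes 1 rose, Slamf1 (0.61), none fell and the median was 0.05; with Bcl6 not counted among the members, 2 rose and 4 fell. Of 14 resting follicular genes 13 fell (median -0.54), such as Foxp1 (-0.55), S1pr1 (-0.70), Cd55 (-0.73) and Klf2 (-0.58), and of 10 marginal-zone genes 6 fell and 1 rose, with Marcks (-0.57), Plac8 (-0.52), Dtx1 (-0.51) and Myof (-0.65) among the fallen.

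Division genes were the most uniform, with 20 of 20 G2/M genes (median 2.76) and 19 of 20 S-phase genes (median 1.61) higher. Examples were Hmgb2 (2.31), Cenpe (3.07) and Kif23 (2.57) of G2/M, and Mcm3 (1.49), Rrm1 (1.53), Pcna (1.23) and Mcm7 (1.51) of S phase. Of 9 plasma cell genes tested 6 rose and none fell (median 0.81), such as Jchain (1.27), Xbp1 (0.90), Txndc5 (0.72) and Mzb1 (0.49). Plasma cell markers summed to 952 to 1710 CPM in co-positive cells and 580 to 1103 CPM in other B cells, and T cell markers to 21.4 to 95.2 CPM in co-positive cells and 28.6 to 102 CPM in other B cells. Neutrophil markers summed to 3699 and 1664 CPM in co-positive cells of D3TA, against 2586 and 2224 CPM in their other B cells, and to 54.4 and 173 CPM in co-positive cells of WT, against 211 and 63.7 CPM, so they were higher in 1 mouse of each genotype and lower in the other; their part in these calls was not tested.

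Genes that BCL6 is known to repress in B cells were mostly level, with 4 of 14 lower, none higher and a median of -0.01. S1pr1 (-0.70), the receptor that draws cells out of follicles, Gpr183 (-0.49), Cdkn1b (-0.55) and Nfkb1 (-0.27) were those 4. With Bcl6 not counted among the members, 2 genes of this list rose and 5 fell. In the list of D-type cyclins and their kinases, Cdk6 (0.95) and Cdk4 (0.75) rose, while Ccnd3, the edited gene, averaged 310 ± 37.9 CPM in co-positive cells and 398 ± 50.6 CPM in other B cells (log2 difference -0.40, SE 0.06, edgeR adjusted p = 0.0036, lower in 4 of 4 libraries). Rb1 (-0.40) was lower too. Among switched heavy chain genes Ighg2b (1.59) rose and Igha (-1.35) fell, and Ighg1 and Ighg3 were not called.

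**Figure D5:**
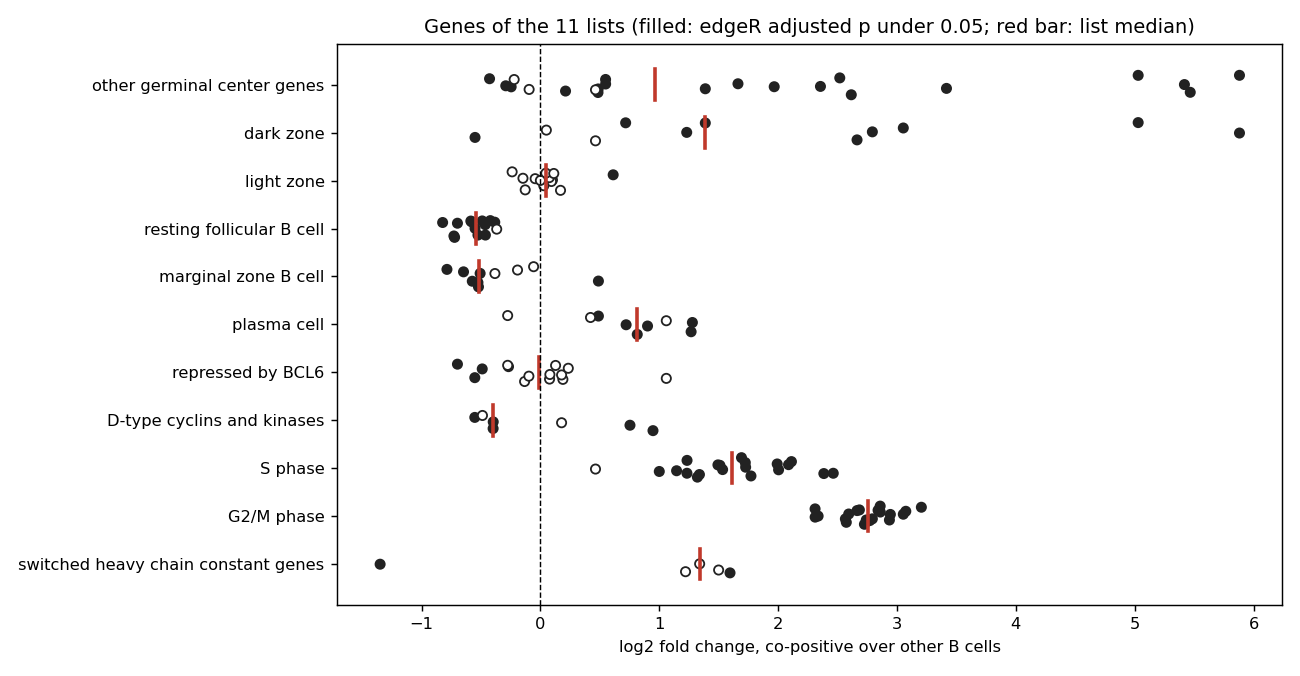
Log2 difference of co-positive over other B cells for the genes of 11 lists; filled points passed edgeR's test at an adjusted p of 0.05, open points did not, and red bars are list medians. Germinal center, dark-zone and division genes lie to the right (medians 0.97, 1.39, 1.61 and 2.76), resting follicular genes to the left (-0.54) and light-zone genes near 0.

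These calls rested on the mixed cluster and on how co-positive cells were defined. Without that cluster edgeR called 13 of 12490 genes (0.104%), and Basp1 and Mybl1 kept their calls while all division genes of the lists lost theirs. With 3 or more members required, 5311 genes (41.6%) were called, and 5139 (40.2%) with Bcl6 not counted.

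Between genotypes, the amount of Rgs13 per positive cell was read as well. Over all Rgs13-positive B cells, the mean was 2.26 and 4.08 Rgs13 UMIs per cell in D3TA and 4.28 and 10.0 in WT.

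The other genes of the germinal center program were read in the genotype comparison too. In the whole spleen 2 of 22 fell and none rose, with 18 of 22 below 0 and a median log2 difference of -0.71 against -0.003 over all genes. Other B cell lists shifted as far, with medians of -0.76 for resting follicular genes (13 of 14 below 0) and -0.75 for marginal-zone genes (7 of 10). One of the 2 that fell was Spib, an ETS factor of B cells, which was at 39.4 and 49.5 CPM in D3TA and 90.6 and 82.0 CPM in WT (log2 difference -0.96, SE 0.18, edgeR adjusted p = 0.0483). Mybl1 (-0.90, adjusted p = 0.0608) and Ezh2 (1.02, adjusted p = 0.0631) came next in edgeR and were not called. The Spib call was lost without WT mouse 1 or WT mouse 2, with edgeR adjusted p of 0.388 and 0.286, and with the stricter cell filter (0.0901) and doublets kept (0.05002), over alternatives that ran from 0.00052 to 0.388. In B cells Spib had a log2 difference of -0.011 (SE 0.17, edgeR adjusted p = 0.993).

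Division genes moved the other way in the whole spleen, where 15 of 20 S-phase and 20 of 20 G2/M genes rose. Of 11 dark-zone genes 4 rose, namely Plk1, Cdc20 and Ccnb1, which the G2/M list also holds, and Cxcr4, which is in neither division list. The S-phase and G2/M genes are used by every dividing cell. B cells were 16.7% and 36.9% of D3TA cells against 50.5% and 50.3% of WT cells. Ccnd3 itself was not called, at 386 and 445 CPM in D3TA and 495 and 438 CPM in WT (log2 difference -0.17, SE 0.21, edgeR adjusted p = 0.675), and the UMIs do not read the edited codon. In B cells none of the 22 germinal center genes was called by edgeR. Among those with the lowest unadjusted p were Nuggc (log2 difference -1.44), Mybl1 (-1.16) and Basp1 (-2.17), each lower in both D3TA mice. With the stricter cell filter the differences of Nuggc, Mybl1 and Basp1 were -0.58, -0.48 and -1.63. They were -0.34, -0.23 and -1.36 without the clusters of 1 library, and -1.12, -0.18 and -1.11 without the mixed cluster.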

How the data were processed

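The authors deposited raw UMI counts per gene and barcode. Per the file headers these came from Cell Ranger 7.0.1, and the submitters' processing notes name mm10 as the build. Per the labels' protocols, spleens were cut and passed through needles, red cells were lysed, and GEM-X chips were loaded for 10000 cells per sample. Intron counting and the annotation release were not given in the sources used here.

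From the 64410 barcodes, those under 500 UMIs or 250 genes or over 10% mitochondrial UMIs were dropped, and 1615 doublets marked by scrublet in scanpy 1.11.5 were removed, leaving 52330 cells. In WT mouse 1 the doublet threshold was the mean of the other libraries. Cells were clustered with leidenalg 0.10.2 at resolution 1 on 2000 variable genes, with the 5 members, receptor, mitochondrial, ribosomal, hemoglobin and sex-linked genes left out; 34 clusters resulted, 8 of them unnamed. A class was named "-like" from 145 marker entries over 14 classes, of which 1 was not found. B cells were the B cell-like clusters plus the gated cells of the mixed cluster. UMIs were summed per library and tested with edgeR 4.0.16 (filterByExpr, TMM, quasi-likelihood test, Benjamini-Hochberg adjustment over all genes tested, two-sided, threshold 0.05), with DESeq2 1.42.0 as an alternative. The comparison of co-positive with other B cells had the library as a block, and the members were not read from it, since they chose its cells. Shares carry exact (Clopper-Pearson) 95% intervals and exact two-sided permutation tests; a share of 0 has a limit of 3 cells. Intervals and limits cover counting error only.

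The members, the gene lists and the tests were chosen with earlier results of these data known. Named genes were the 12 called genes with the largest log2 difference in each direction that moved alike in all libraries and averaged 20 CPM or more in the higher set, without receptor segments and unnamed gene models, and in each list the 4 genes with the smallest p. Of the genes under this rule, 1 is not reported here. Each fit was tested on simulated counts before use. Alternatives covered another scaling (DESeq2's size factors), no low-count filter, DESeq2, a stricter cell filter (1000 UMIs, 500 genes, 5% mitochondrial), doublets kept, resolution 2, other choices of B cells, thinning to 1000 or 2000 UMIs, other counts of members, a block for the replicate number and libraries left out singly. Those on the mixed cluster, on clusters of 1 library and on a gate without neutrophil genes were chosen after the data were seen. Gene positions are those of GENCODE on GRCm38, which may differ from the authors' annotation. Python 3.11.15 and R 4.3.3 were used.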

Additional observations from a re-analysis of the deposited data

Results flagged for a closer look

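Over 138 of the 145 named and list genes, those with at least 10 UMIs in the co-positive cells of every library, 4 had a ratio of co-positive over other B cells that pointed one way in both D3TA mice and the other way in both WT mice. The difference between genotypes was not tested for any of them, none passed the test of co-positive against other B cells, and the cells behind each value are few. Myc, a growth-driving transcription factor of the light zone, had log2 ratios of -0.615 and -0.312 in D3TA and 0.0079 and 0.560 in WT, a difference of -0.747. Bcl2l1, a survival gene, had -0.370 and -0.015 in D3TA and 0.261 and 0.514 in WT, a difference of -0.580. Cd72, a coreceptor that dampens B cell receptor signals, had 0.300 and 0.285 in D3TA and -0.264 and -0.122 in WT, a difference of 0.485. Cd69, an activation marker, had 0.383 and 0.031 in D3TA and -0.289 and -0.358 in WT, a difference of 0.531.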

How the results depend on the processing

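The level of Rgs13 stayed lower in D3TA under every alternative run in the whole spleen and in B cells, and its whole-spleen call was lost only without WT replicate 2. Of the 5 members, 1 was called in the whole spleen, 2 by DESeq2 and 0 to 3 with 1 library left out; in B cells 0 were called, 2 by DESeq2 and 0 to 5 with 1 library left out. The replicate numbers did not pair the libraries (correlation of deviations -0.083 in the whole spleen and -0.0074 in B cells), and with a replicate block the log2 differences in the whole spleen were -3.00 for Rgs13, -1.17 for Gcsam, -0.73 for Mef2b, -0.18 for Bcl6 and -0.18 for S1pr2, with 1 member called, and in B cells -2.12, -2.14, -0.51, -1.0 and -1.10 in the same order, with 0 called. With the block Spib lost its whole-spleen call (adjusted p = 0.0672). The genes called between co-positive and other B cells numbered 330 with no replicate block, 1010 to 3478 with 1 library left out, 5139 without counting Bcl6, 5105 without Bcl6 in cells of at least 2000 UMIs, 5311 with 3 or more members and 13 without the mixed cluster; the causes were not tested. Directions turned for Bcl6 in the whole spleen without WT replicate 1 (0.0092, and -0.39 to 0.0092 over the libraries left out), and without the mixed cluster for S1pr2 (0.56) and Mef2b (0.18) in B cells. In co-positive cells without the mixed cluster they turned for Polh (-0.11), Klf2 (0.0036), Plac8 (0.049), Jchain (-0.44), Xbp1 (-0.072), Gpr183 (0.028), Nfkb1 (0.15), Cdk4 (-0.013), Rb1 (0.082), Mcm3 (-0.10), Pcna (-0.048), Kif23 (-0.27) and Ighg2b (-0.44). Over the other values, 105 lost a call, 53 gained one, 1019 stayed on their side of the threshold or, for shares of B cells, within 1 SD between replicates, and 7 shares moved further. Signs of uncalled values could turn among the 1019, as for the share of B cells positive for Rgs13 (-0.092 percentage points, against 0.446 without the mixed cluster). Those 7 were S1pr2 (1.52 points with B cells gated in all clusters), Mef2b (-0.374 and -0.526 when thinned to 1000 and 2000 UMIs) and Gcsam (-0.0843 with the stricter filter, -0.123 thinned to 1000 UMIs, 0.0011 with B cells gated in all clusters and 0.0095 without clusters of 1 library). The planned gate without S100a8 and S100a9 left 0 and 2 D3TA cells, against 7787 and 3445 WT cells, and gave no value. Depth limits every share: at 2000 UMIs per cell, 3 and 3 D3TA B cells and 29 and 13 WT B cells held 3 or more members.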

Other observations

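T cell-like cells, the class that holds the T follicular helper cells on which germinal centers depend, gave no uniform difference between genotypes in the helper genes. Cxcr5, the follicle-homing receptor, had 60.3 and 32.2 CPM in T cell-like cells of D3TA and 67.4 and 59.7 CPM in WT. Il21, the cytokine that sustains germinal center B cells, had 28.2 and 21.4 CPM in D3TA and 5.41 and 39.7 CPM in WT, where WT mouse 1 was lowest and WT mouse 2 highest. Pdcd1, an inhibitory receptor of these cells, had 150 and 40.8 CPM in D3TA and 20.7 and 75.8 CPM in WT. Bcl6, which helper cells need as well, had 79.9 and 77.6 CPM in D3TA and 66.5 and 85.3 CPM in WT, so these 4 genes differed more within than between genotypes or overlapped. None of the 10 helper genes was called by edgeR in the whole spleen.

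Bcl6 in neutrophil-like cells was lower in both D3TA mice, with 95.4 and 96.8 CPM over 3479 and 1874 cells, than in both WT mice, with 355 and 212 CPM over 153 and 135 cells. Those cells held 3570 and 2025 of the Bcl6 UMIs in D3TA and 257 and 188 in WT, so neutrophils made up much of the whole-spleen Bcl6 level in D3TA and little of it in WT.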
